A study of Homo sapiens with 22 samples.

Results

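The genes described here are 8 members of the bone morphogenetic protein (BMP) pathway: the ligands BMP2 and BMP4, the secreted antagonist GREM1 (gremlin 1), the membrane pseudoreceptor BAMBI, and the 4 inhibitor of DNA binding genes ID1, ID2, ID3 and ID4. They were taken by symbol and are 8 of the 33694 genes counted in each library. BJ cells, a human foreskin fibroblast line, were reprogrammed towards induced pluripotency in microfluidic chips by repeated transfection of mRNA coding for reprogramming factors. The D0 cells are the control and had received no transfection, and the cells of D3, D5, D7, D9, D11, D13 and D15 were harvested that number of days into the same course. By the paper, BJ cells were grown in a medium with fetal bovine serum, and reprogramming medium was used from day 1 on. D3 against D0 therefore joins this change of medium with transfection. Transfection ended with day 8 and the medium was changed again from D9 on, so time, transfection and medium cannot be told apart. Every day has 2 pools of cells, A and B (n = 2), each joined from independent chips, and all groups descend from this 1 line.

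BMP ligands bind type I and type II serine/threonine kinase receptors, which phosphorylate SMAD1, SMAD5 and SMAD9, and these enter the nucleus with SMAD4. ID1, ID2 and ID3 are among the most direct targets of this signal, and ID proteins bind the E proteins TCF3, TCF4 and TCF12 and keep them and their partners off DNA. BAMBI resembles a type I receptor without a kinase and damps the signal, GREM1 binds BMP2 and BMP4 outside the cell, and CER1 (cerberus), used below to pick out a class of cells, is itself a secreted BMP and NODAL antagonist of early mesendoderm. In human pluripotent cells, BMP ligand favours exit towards mesoderm or extraembryonic fates.

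By gencode v44 of GRCh38, BMP2 (ENSG00000125845) lies on chromosome 20 from 6767686 to 6780246 and BMP4 (ENSG00000125378) on chromosome 14 from 53949736 to 53958761. GREM1 (ENSG00000166923) lies on chromosome 15 from 32718004 to 32745106 and BAMBI (ENSG00000095739) on chromosome 10 from 28677510 to 28682932. ID1 (ENSG00000125968) spans 31605283 to 31606515 of chromosome 20, ID2 (ENSG00000115738) spans 8678845 to 8684461 of chromosome 2, ID3 (ENSG00000117318) spans 23557926 to 23559501 of chromosome 1 and ID4 (ENSG00000172201) spans 19837370 to 19842197 of chromosome 6. ID2 overlaps the antisense gene ID2-AS1, ID4 overlaps LNC-LBCS and GREM1 overlaps GREM1-AS1, and these had a UMI in 0.272%, 0.970% and 2.10% of cells. Whether the counting used strand is not given in the sources used here, so reads of these pairs may be shared.

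The 250 bases before the RefSeq start of each ID gene are shown, on GRCh38.p14, because 3 of these 4 genes ended the course together above their D0 level. Capitals mark CAGAC or its other strand GTCTG, the short SMAD-binding letters. The windows are chr20:31605039-31605288 for ID1, chr2:8681806-8682055 for ID2, chr1:23559502-23559751 on the minus strand for ID3 and chr6:19837120-19837369 for ID4, each read towards its gene. The RefSeq and gencode starts differ for ID1, whose window runs a few bases into the gencode span, and for ID2, whose window lies inside it.

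ID1: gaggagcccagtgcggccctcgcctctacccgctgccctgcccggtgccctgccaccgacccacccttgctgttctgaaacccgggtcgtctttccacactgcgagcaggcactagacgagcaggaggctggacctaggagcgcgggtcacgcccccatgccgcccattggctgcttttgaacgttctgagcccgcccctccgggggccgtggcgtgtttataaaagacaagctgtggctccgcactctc

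ID2: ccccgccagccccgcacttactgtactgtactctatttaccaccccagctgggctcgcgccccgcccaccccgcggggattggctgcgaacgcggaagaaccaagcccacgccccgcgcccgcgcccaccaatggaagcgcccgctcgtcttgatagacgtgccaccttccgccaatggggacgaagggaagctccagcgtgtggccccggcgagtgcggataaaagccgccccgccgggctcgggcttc

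ID3: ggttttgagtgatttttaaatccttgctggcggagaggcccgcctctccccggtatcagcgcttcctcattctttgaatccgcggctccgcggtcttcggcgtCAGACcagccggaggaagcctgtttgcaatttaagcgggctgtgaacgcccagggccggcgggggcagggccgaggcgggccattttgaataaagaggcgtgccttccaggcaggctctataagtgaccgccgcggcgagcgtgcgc

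ID4: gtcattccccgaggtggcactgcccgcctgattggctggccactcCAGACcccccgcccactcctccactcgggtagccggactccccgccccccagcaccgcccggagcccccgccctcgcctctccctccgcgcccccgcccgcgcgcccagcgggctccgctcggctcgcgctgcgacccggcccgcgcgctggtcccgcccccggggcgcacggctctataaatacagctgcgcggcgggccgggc

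ID3 and ID4 each hold 1 CAGAC, and ID1 and ID2 hold none, while 38.0% of 35116 RefSeq promoter windows of this length hold it on either strand. The BMP-responsive letters GGCGCC, which read the same on both strands and do not overlap CAGAC, are in none of the 4 windows and in 16.4% of all. Sequence outside these windows was not searched, so sites elsewhere are not counted. GC content was 66.0% for ID1, 69.2% for ID2, 62.0% for ID3 and 78.8% for ID4.

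Of 44197 deposited barcodes, 41975 entered the tests, those with 1000 or more genes and no more than 10% of UMIs from mitochondria, in 22 libraries that make up 16 pools. A pool held between 33181614 and 180056814 UMIs, with median depths of 23717 to 80168 UMIs per cell. A level is given as CPM, the gene's UMIs in counts per 1000000 UMIs of the pool. Over 40 comparisons between 2 aliquots of the same pool with at least 20 UMIs each, the levels of the genes other than BMP2 differed by a median of 1.21-fold and at most 1.96-fold. BMP2 had too few UMIs for any such comparison, and in pool B of D11 its aliquots held 0.0918 and 1.17 CPM. No 2 libraries shared more than 39 barcodes (at most 2.11% of the smaller library). At D0 each of the 11 fibroblast markers was at 5 CPM or more and none of 12 pluripotency markers was. Pool B of D11 and pool A of D13 stood apart in the share of cells cut as low in POU5F1, at 25.6% and 22.8%. The cut was below 50 CPM, without the CER1-high cells defined below, and the other 4 pools of D11 to D15 had 0.479% to 3.33%. This share depends on the cut. In the whole pools the fibroblast markers summed to 3497 CPM in pool A and 3771 in pool B of D11. They summed to 3407 and 1858 CPM in pools A and B of D13. In a whole pool, fewer cells of a type and less RNA per cell cannot be told apart.

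ID1, ID2 and GREM1 fell from D0 to D3, ID2 by the most. ID1 then rose at each step to D9, BAMBI from D3 to D5 and from D7 to D9, and ID3 from D3 to D7, and the mean of BMP4 was highest on D9. ID2 came back only in part and GREM1 late, and BMP2 was near 0 until D13.

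**Figure D1:**
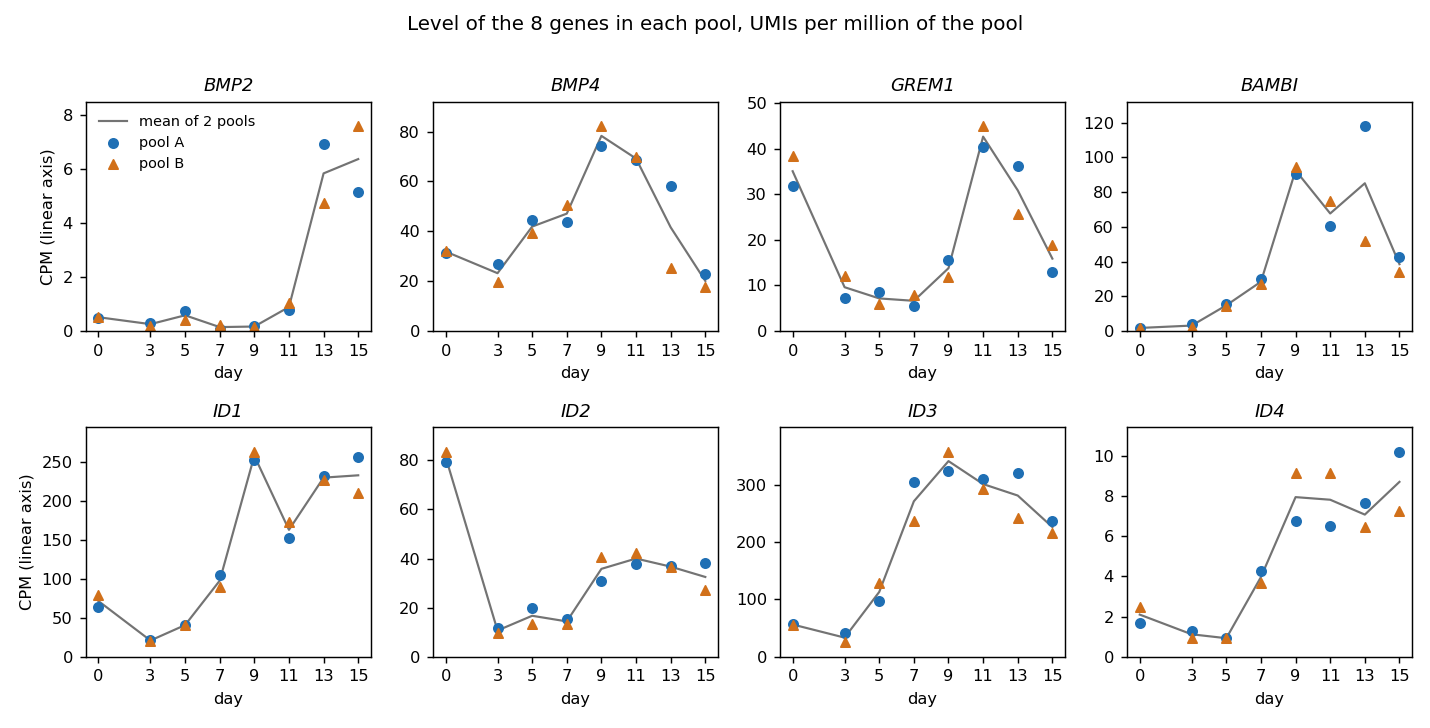
Level of each gene in CPM (linear axis) against day, with pool A as circles, pool B as triangles and the line through the mean of both. BMP2 stands at 4.74 CPM or more only on D13 and D15, the means of BAMBI and ID3 stand higher on each day from D3 to D9, and the D13 pools of BMP4 and BAMBI lie far apart.

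BMP4, the ligand with the higher detection here (a UMI in 51.1% of cells), was at 31.5 CPM in pool A and 32.3 in pool B of D0. It was at 26.8 and 19.6 CPM on D3, 44.7 and 39.2 on D5, and 43.7 and 50.6 on D7. It peaked at 74.3 and 82.2 CPM on D9, or 78.3 ± 5.54 (SD, n = 2). D11 was next with 68.5 and 69.8 CPM, and the pools of D9 and D11 did not overlap. On D13 pool A held 58.1 CPM and pool B 25.1, and D15 was lowest with 22.7 and 17.5 CPM. The levels of D15 and D3 overlapped, as did those of D13 with D0, D3, D5 and D7.

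BMP2, the other ligand, had a UMI in 2.77% of cells. It lay between 0.0630 CPM (pool A of D7) and 1.02 CPM (pool B of D11) in all 12 pools up to D11. On D13 it was at 6.93 and 4.74 CPM, and on D15 at 5.15 and 7.59. The D13 and D15 pools overlapped each other and stood above every earlier pool.

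GREM1 was at 31.8 and 38.4 CPM in the fibroblasts of D0. It was between 5.41 and 12.0 CPM in the 6 pools of D3, D5 and D7, which overlapped. It stood at 15.7 and 11.9 CPM on D9, at 40.4 and 45 on D11, at 36.3 and 25.6 on D13 and at 12.9 and 19.0 on D15. D11 was therefore the highest day, above D0 without overlap.

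BAMBI began near 0, at 1.64 and 1.88 CPM on D0 and 4.03 and 2.22 on D3. It passed through 15.3 and 14.4 CPM on D5 and 29.9 and 26.9 on D7 to 90.6 and 94.5 on D9. The mean of D9 was 52.7 times that of D0. It stood at 60.4 and 74.9 CPM on D11, at 118 and 52.0 on D13 and at 42.8 and 34.2 on D15. From D0 to D9 no 2 days overlapped, while D13 overlapped both D11 and D9.

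ID1 was at 64.3 and 78.7 CPM on D0 and at its lowest on D3, with 21.7 and 20.1. It was at 40.8 and 40.5 CPM on D5, 105 and 90.2 on D7 and 253 and 263 on D9. Lower values followed on D11, at 152 and 173 CPM, before 232 and 227 on D13 and 257 and 210 on D15. D15 overlapped both D13 and D9, and D11 overlapped none of the neighbours in rank.

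ID3 followed with 57.3 and 55.3 CPM on D0, 41.4 and 25.4 on D3 and 96.9 and 129 on D5. It reached 305 and 236 CPM on D7 and 324 and 357 on D9. It was at 310 and 292 CPM on D11, 320 and 242 on D13 and 237 and 216 on D15. The days from D7 to D15 overlapped their neighbours in rank, apart from D9 at the top.

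ID4, mainly known from neural and mammary progenitors, was low throughout, between 0.914 and 2.50 CPM in the 6 pools of D0, D3 and D5. It was at 4.29 and 3.66 CPM on D7 and between 6.47 and 10.2 in the 8 pools of D9 to D15, which overlapped.

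ID2, unlike the other ID genes, was highest at D0, with 79.3 and 83.4 CPM, and it was lowest on D3, with 11.6 and 9.78. It was between 13.4 and 20 CPM on D5 and D7 and between 27.0 and 42.2 in the 8 pools of D9 to D15. No later pool came near D0.

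For the tests, the UMI sums of all 16 pools entered 1 edgeR quasi-likelihood fit over the 12794 genes with a UMI in at least 5% of cells, and a gene was called at a Benjamini-Hochberg adjusted p below 0.01 with a log2 fold change beyond 0.25. Of the 8 genes 7 were tested. BMP2 missed the detection filter and was tested in the fit of all 29281 genes with a UMI. A gene low in most pools passes the filter through the days on which it is high, which bears on BAMBI and ID4. The 2 pools of a day are sets of chips of 1 line, so p-values measure the spread between such sets.

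**Figure D2:**
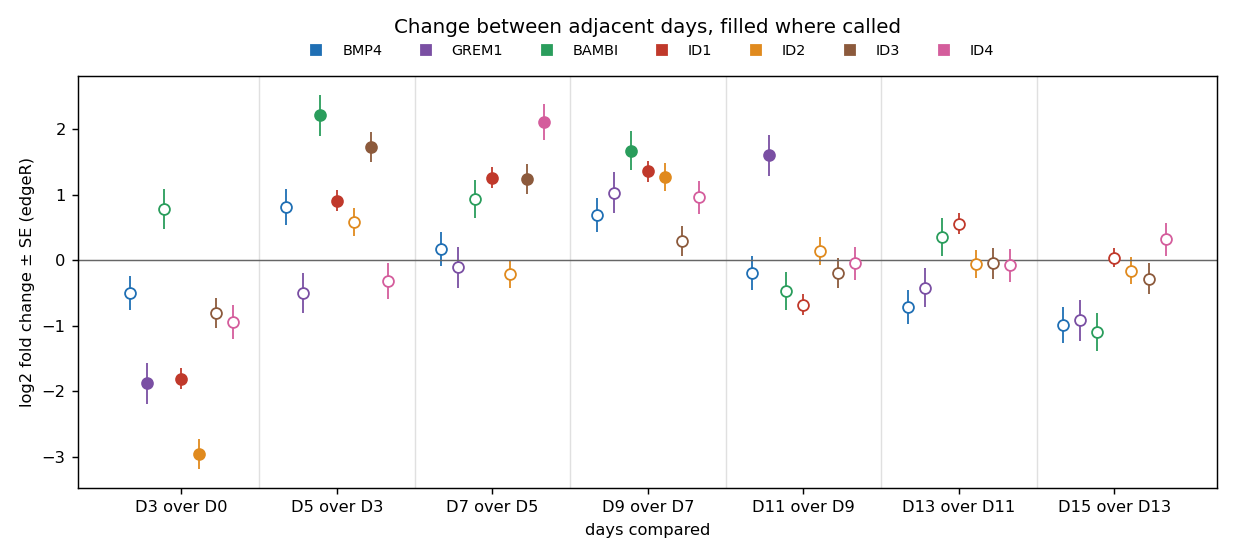
Log2 fold change of the 7 tested genes between adjacent days, with the SE from edgeR, filled where the gene was called. Filled points fall below 0 only in the comparison of D3 with D0, and none is filled after D11.

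From D0 to D3, 3 of the 7 genes were called and all 3 were lower, against 25.6% of all genes called and 12.6% called lower. ID2 fell by 2.96 on the log2 scale (SE 0.23, adjusted p = 2.6e-06), ID1 fell by 1.81 (SE 0.16, adjusted p = 8.7e-06) and GREM1 fell by 1.88 (SE 0.31, adjusted p = 5.8e-04). ID3 (log2 -0.80, adjusted p = 0.014) and ID4 (log2 -0.95, adjusted p = 0.012) missed the limit, and DESeq2 called both. Without pool A of D3 the fall of ID3 was called too (log2 -1.13, adjusted p = 0.0055). BAMBI was at 0.78 (adjusted p = 0.056) and BMP4 at -0.50 (adjusted p = 0.150).

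From D3 to D5, 3 genes rose, against 3.56% of all genes called and 3.20% called higher. BAMBI rose by 2.21 on the log2 scale (SE 0.31, adjusted p = 7.6e-04), ID3 by 1.73 (SE 0.23, adjusted p = 5.7e-04) and ID1 by 0.91 (SE 0.16, adjusted p = 0.0031). BMP4 was at 0.81 and was not called (adjusted p = 0.098). The call of ID1 was lost when any 1 of the 4 pools was left out (adjusted p of 0.015 to 0.03), and those of BAMBI and ID3 were kept. That of ID1 was also lost with no filter on genes (log2 0.70, adjusted p = 0.043).

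From D5 to D7, 3 genes rose, against 2.06% called of all and 1.81% called higher. ID4 rose by 2.11 (SE 0.28, adjusted p = 8.5e-04), ID1 by 1.26 (SE 0.16, adjusted p = 6.1e-04) and ID3 by 1.24 (SE 0.23, adjusted p = 0.0074). Without pool A of D5 none of the 7 was called, when 28 of all genes were. The call of ID3 was also lost without any of the other 3 pools (log2 1.04 to 1.54, adjusted p of 0.011 to 0.087).

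From D7 to D9, 3 genes rose, against 7.37% called of all and 4.59% called higher. BAMBI rose by 1.67 (SE 0.30, adjusted p = 0.0024), ID1 by 1.36 (SE 0.16, adjusted p = 1.3e-04) and ID2 by 1.27 (SE 0.21, adjusted p = 0.0017). This step spans the last transfection. Without pool B of D7, and likewise without pool B of D9, only ID1 was called. BAMBI lost its call without any 1 of the 4 pools (log2 1.61 to 1.75, adjusted p of 0.015 to 0.042), and ID2 without pool B of either day (adjusted p of 0.029 and 0.03).

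From D9 to D11 GREM1 alone was called, with a rise of 1.60 (SE 0.31, adjusted p = 0.0067), against 4.09% of all genes called and 2.92% called higher. It was not called when any 1 of the 4 pools was left out (log2 1.40 to 1.84, adjusted p of 0.036 to 0.092). ID1 stood at -0.68 and missed the limit (adjusted p = 0.016), and DESeq2 called it (log2 -0.70, adjusted p = 4.4e-04).

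From D11 to D13 and from D13 to D15 none of the 7 genes was called by edgeR, against 0.117% and 0.0860% of all genes. At an unadjusted p below 0.05 there were 2 and 3 of them, beside 2074 and 2962 of all 12794 genes, and DESeq2 called 0 in each. For BMP4 the 2 steps gave log2 -0.71 (adjusted p = 0.200) and -0.99 (adjusted p = 0.058), and for BAMBI the second step gave -1.09 (adjusted p = 0.058). Without pool A of D13 BMP4 was called lower on D13 than on D11 (log2 -1.30, adjusted p = 0.0089), and without pool B of D13 both BMP4 (log2 -1.41, adjusted p = 0.003) and BAMBI (log2 -1.50, adjusted p = 0.0055) were called lower on D15. In the fit of all genes BMP4 (log2 -1.18, adjusted p = 0.0089) and BAMBI (log2 -1.27, adjusted p = 0.0074) were also called lower on D15 than on D13, where 1.81% of genes were called.

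BMP2, tested in the fit of all genes, fell by 1.98 on the log2 scale from D5 to D7 (SE 0.44, adjusted p = 0.0071), where 1.70% of genes were called. The level was 0.738 and 0.425 CPM on D5 and 0.0630 and 0.227 CPM on D7, from 9 to 63 UMIs a pool. It rose by 2.32 from D9 to D11 (SE 0.42) and by 2.73 from D11 to D13 (SE 0.38), against 5.02% and 1.17% of genes called there. The other adjacent steps were not called for BMP2.

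Against the starting fibroblasts, D15 had 6 of 7 genes called, where 53.4% of all genes were called, 26.8% higher and 26.7% lower. BAMBI was higher by 4.39 on the log2 scale (SE 0.34, adjusted p = 2.1e-07), ID4 by 1.99 (SE 0.26, adjusted p = 2.4e-05), ID3 by 1.94 (SE 0.23, adjusted p = 1.1e-05) and ID1 by 1.64 (SE 0.16, adjusted p = 1.7e-06). ID2 was lower, at -1.39 (SE 0.21, adjusted p = 9.7e-05), and so was GREM1, at -1.20 (SE 0.31, adjusted p = 0.0043). The call of GREM1 was lost without either pool of D0 (adjusted p of 0.013 and 0.03) and without pool A of D15 (log2 -0.94, adjusted p = 0.054). BMP4 was at -0.73 (SE 0.27) and was not called (adjusted p = 0.028). In the fit of all genes, where 38.4% of genes were called, BMP4 was called lower (log2 -0.96, adjusted p = 0.0038) and BMP2 was higher by 3.36 (SE 0.39).

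Taking D9 to D15 against D3 to D7, 6 of 7 genes were higher, where 43.5% of all genes were called and 21.0% called higher. The differences ran from 1.37 (ID2, SE 0.12) to 2.58 (BAMBI, SE 0.17) on the log2 scale, with ID1 at 2.28 (SE 0.09), and BMP4 was the exception at 0.32 (SE 0.14, adjusted p = 0.072). It was called without pool B of D13 (log2 0.44, adjusted p = 0.0022). BMP2 was higher by 2.31 (SE 0.23) in the fit of all genes, where 35.5% were called. All 7 genes differed among the 8 days, where 57.5% of all genes did.

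The rest of the pathway was read from 6 lists of genes by role. Of 11 other BMP family ligands only BMP7 passed the filter. BMP7, a ligand of epithelial tissues, rose from a mean of 0.455 CPM on D0 to 13.5 on D15 (log2 4.83, SE 0.28, adjusted p = 2.2e-08). Of 8 tested antagonists, 1 rose and 5 fell from D0 to D15, with a median log2 change of -1.44 beside 0.01 over all genes. The largest called fall was that of NBL1, a secreted BMP antagonist, from 226 to 9.98 CPM (log2 -4.56, SE 0.43). The rise was that of SOST (sclerostin), which was at 0.00300 CPM on D0, 17.3 on D9 and 0.183 on D15.

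Among 10 tested receptors and co-receptors, 3 rose and 6 fell, with a median of -1.60. ACVR2B, a type II receptor, rose by 4.69 (SE 0.22) from 1.57 to 42.3 CPM, and ENG (endoglin), a co-receptor of endothelium and stroma, fell by 3.52 (SE 0.47) from 53.9 to 4.91 CPM. Of the 8 SMADs and their inhibitors none rose and 2 fell, with a median of -0.25. These were SMAD9, a receptor-activated SMAD, at -2.47 (SE 0.26), and SMURF2, a ubiquitin ligase that targets SMADs and receptors, at -1.32 (SE 0.25). SMAD1 was at 0.00 (SE 0.25) and SMAD5 at -0.30 (SE 0.38). SMAD1 was not flat between those days, with means of 8.55 CPM on D0, 26.3 on D7 and 8.93 on D15, and it was called lower in D9 to D15 than in D3 to D7 (log2 -0.90, SE 0.13, adjusted p = 7.8e-05). In that comparison 3 of the 8 were called higher and 2 lower.

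Of 10 other BMP targets 5 passed the filter, and these 5 fell, with a median of -3.37, while ID1, ID3 and ID4 rose and ID2 fell in the same comparison. The filter counts cells of all days together, and the pools of D0 gave 6142 and 4634 of the 41975. Targets high on D0 therefore pass it more readily than targets high only late, which favours falls among those tested. Among the 5 that did not pass, HAND1, a transcription factor of heart and extraembryonic mesoderm, went from 0 CPM on D0 to means of 19.7 on D13 and 6.88 on D15, and GATA3 from 1.02 CPM on D0 to 3.01 on D15. MSX2 went from 1.25 CPM on D0 to 4.99 on D13 and 0.411 on D15, and DLX3 and DLX5 stayed below 1 CPM on every day. These 5 were not tested. TFAP2A, a transcription factor of surface ectoderm, fell by 4.96 (SE 0.34) from 63.6 to 2.10 CPM, and GATA2 fell by 3.58 (SE 0.37) from 21.5 to 1.94 CPM. TFAP2A also stands in the list of trophoblast or amnion markers. Of the 3 E proteins, TCF3 rose by 1.73 (SE 0.22) from 12.9 to 44.6 CPM, and TCF4 fell by 1.86 (SE 0.21) from 192 to 55.3 CPM, while TCF12 fell by 1.10 (SE 0.20, adjusted p = 4.2e-04).

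Cells high in CER1 were compared with the other cells of the same pools on D13 and D15. A cell was CER1-high at 200 CPM and 5 UMIs of CER1 or more. There were 78 such cells of 1377 in pool A of D13, 234 of 4069 in pool B of D13, 18 of 571 in pool A of D15 and 112 of 2108 in pool B of D15. With fewer than 20 CER1-high cells, pool A of D15 did not enter the fit, which rests on 3 pools with the pool as a block. CER1 itself, which made the cut, is 1 of 11 mesendoderm markers. Of the other 10, 9 or 10 were at 5 CPM or more in the CER1-high cells, summing to 829 to 1147 CPM, against 25.7 to 36.4 CPM in the other cells. Their fibroblast markers summed to 478 to 1302 CPM, against 1029 to 3500, and their POU5F1 was at 168 to 291 CPM, against 726 to 1358. The 10 trophoblast or amnion markers summed to 15.7 CPM in them against 53.6 in the other cells of pool A of D13 and to 20.7 against 21.2 in pool B of D13, but to 31.1 against 14.6 and 48.4 against 21.8 in pools A and B of D15. Of these 10 markers 1 or 2 were at 5 CPM or more in each CER1-high group, and likewise 1 or 2 in the other cells. CGA, VTCN1 and ELF5 were at 0 in 3 or more of the 4 CER1-high groups, which hold fewer cells. In the other cells VTCN1 was at 0 in pool B of D13 and pool A of D15, and ELF5 in pool A of both days. Between 1 and 89 cells of a pool lay just under the cut, at 100 to 200 CPM, and 5 to 36 just over it, at 200 to 400.

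BMP2 was concentrated in the CER1-high cells. It was at 123 CPM there against 1.84 in the other cells of pool A of D13, at 55.1 against 2.35 in pool B of D13, at 108 against 1.74 in pool A of D15 and at 119 against 2.48 in pool B of D15. Each value of the CER1-high cells lies above every value of the other cells. These cells gave 74.6%, 52.7%, 67.3% and 68.7% of the BMP2 UMIs of those pools, from 4.20%, 4.54%, 3.20% and 4.37% of all UMIs. BMP2 was called higher in the fit of all genes, by 5.22 on the log2 scale (SE 0.17), where 15.1% of genes were called.

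With each cell thinned to 5000 UMIs, 17 of 78 CER1-high cells of pool A of D13 held a BMP2 UMI, or 21.8% (exact 95% binomial interval 13.2 to 32.6%), against 0.847% of the other cells (0.423 to 1.51%). The shares were 18.4% (13.6 to 23.9%) against 1.15% (0.835 to 1.54%) in pool B of D13, and 27.8% (9.69 to 53.5%) against 0.362% (0.0438 to 1.30%) in pool A of D15. In pool B of D15 they were 38.4% (29.4 to 48.1%) against 1.5% (1.02 to 2.14%). The D0 fibroblasts had 0.277% and 0.410%, and the intervals cover counting error only. Before thinning, the first pair was 53.8% against 4.23%, at median depths of 38109 and 55540 UMIs.

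Among the 7 genes of the main fit, 3 were called in CER1-high cells, 2 higher and 1 lower, against 17.6% of all genes called, 9.75% higher and 7.82% lower. Without the pool as a block none was called by edgeR, when 116 of all genes were.

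**Figure D3:**
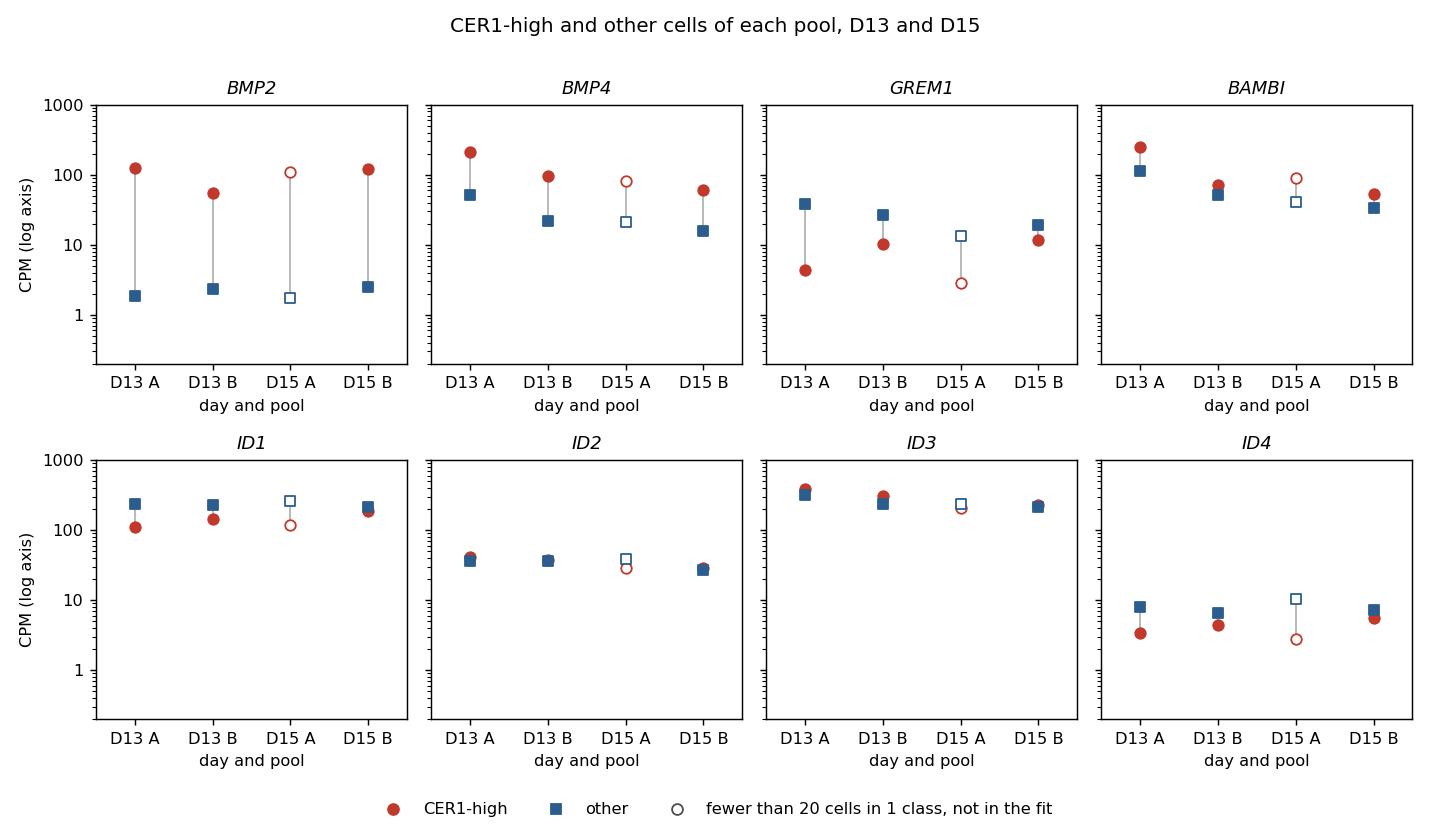
Level in CPM (log axis, the same in each panel) in CER1-high cells (circles) and the other cells (squares) of each pool of D13 and D15, with open symbols for pool A of D15, which did not enter the fit. BMP2 and BMP4 are higher in CER1-high cells of all 4 pools, ID1, ID4 and GREM1 lower.

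BMP4 was at 213 CPM against 51.3 in pool A of D13, 96.8 against 21.7 in pool B of D13, 80.1 against 20.8 in pool A of D15 and 61.5 against 15.5 in pool B of D15. The ratios of 4.16, 4.45, 3.85 and 3.96 lay close together although the levels did not. The log2 difference was 2.02 (SE 0.10, adjusted p = 3.2e-05).

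BAMBI was at 245 CPM against 113, 70.5 against 51.1, 89.5 against 41.3 and 52.6 against 33.4 in the same order of pools. It was higher in CER1-high cells of every pool, by 0.71 on the log2 scale (SE 0.14, adjusted p = 0.0084). The call was lost without pool A of D13 (log2 0.50, adjusted p = 0.018) and without pool B of D13 (log2 0.84, adjusted p = 0.01), so that without pool B only BMP4 stayed called.

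GREM1 was at 4.31 CPM against 37.7, 10.1 against 26.3, 2.83 against 13.2 and 11.7 against 19.3 in that order. It was lower, at -1.66 on the log2 scale (SE 0.34, adjusted p = 0.0088), and not called without pool B of D13 (log2 -1.86, adjusted p = 0.022). The other cells include cells low in POU5F1 (below 50 CPM) and cells between 50 and 200 CPM of POU5F1, and GREM1 was higher in both than in POU5F1-high cells (200 CPM or more) of each pool. The cells in between, of which there were 139, 411, 43 and 164, held 97.9, 99.2, 120 and 160 CPM, above the 66.7 and 76.8 CPM of POU5F1-low cells in pool B of D13 and of D15. Against POU5F1-high cells alone, a reference chosen after the values were seen, GREM1 stood at -0.43 (SE 0.28, adjusted p = 0.260) and was not called, while BMP4 at 2.74 (SE 0.15) and BAMBI at 0.85 (SE 0.15) were, where 15.8% of all genes were called. The cells in between held 127, 82.6, 176 and 96.4 CPM of BMP4. For BAMBI they held 150, 107, 231 and 87.9 CPM. POU5F1-low cells held 130, 101, 106 and 146 CPM of BMP4, and 166, 150, 119 and 125 CPM of BAMBI. CER1-high cells were above both in pool A of D13 and below POU5F1-low cells in the other pools. Higher BMP4 and BAMBI than in POU5F1-high cells was therefore not particular to CER1-high cells.

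ID1 was lower in the CER1-high cells of all 4 pools. It was at 112 CPM against 238, 143 against 231, 118 against 261 and 188 against 211. At -0.69 on the log2 scale (SE 0.16) it missed the limit (adjusted p = 0.014), but it was called without pool B of D15 (log2 -0.95, adjusted p = 6.9e-05), with pool A of D15 added (log2 -0.81, adjusted p = 0.0026) and by DESeq2 (log2 -0.69, adjusted p = 0.0013). ID4 was lower in the 4 pools too, at 3.39 against 7.87, 4.42 against 6.57, 2.83 against 10.4 and 5.65 against 7.34 CPM, and missed it as well (log2 -0.73, SE 0.22, adjusted p = 0.039). ID3 stood at 0.20 (SE 0.09, adjusted p = 0.120) and ID2 at 0.06 (SE 0.10, adjusted p = 0.672). In pool A of D15 both ID2 and ID3 were lower in CER1-high cells, at 29.2 against 38.4 and 205 against 238 CPM, unlike the other 3 pools. In the same order of pools, POU5F1-high cells held 277, 240, 268 and 213 CPM of ID1. The cells in between held 118, 137, 164 and 187 CPM, and POU5F1-low cells 136, 112, 293 and 146. Lower ID1 than in POU5F1-high cells was therefore not particular to CER1-high cells, although POU5F1-low cells of pool A of D15 did not show it.

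The CER1-high effect was also compared between D15 and D13, with 1 residual degree of freedom. None of the 7 was called by edgeR, against 0.289% of all genes, and 2 had an unadjusted p below 0.05, beside 1227 of all 12794 genes. The difference for ID1 was 0.72 (SE 0.18, adjusted p = 0.120), since pool B of D15 showed the smallest gap. DESeq2 called 0 as well.

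Of the role lists in CER1-high cells, 2 of 8 antagonists were higher and 1 lower, with a median of 0.21 beside -0.01 over all genes. FST (follistatin), which binds activin and BMPs, was at 1061, 556, 779 and 719 CPM against 147, 94.8, 49.3 and 61.8 (log2 2.93, SE 0.18, adjusted p = 7.9e-05). SOST was under 1 CPM in CER1-high cells of all 4 pools and at 0.187 to 3.81 CPM in the other cells. Of 10 receptors and co-receptors, 5 were higher and 1 lower, with a median of 0.90. TGFBR3 (betaglycan), a co-receptor, was higher by 1.41 (SE 0.29, adjusted p = 0.0096), and RGMB, a BMP co-receptor, was at 18 to 25.9 CPM against 5.17 to 10.3 (log2 1.29, SE 0.15, adjusted p = 8.7e-04).

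SMAD6, an inhibitory SMAD that is itself a BMP target, was the 1 gene called of the 8 SMADs and their inhibitors. It was at 14.2, 5.99, 13.2 and 7.42 CPM against 2.79, 1.97, 2.58 and 1.74 (log2 1.96, SE 0.24, adjusted p = 0.0012), beside a list median of -0.12. Of the 5 other targets tested, MSX1, a homeobox gene, was higher by 2.33 (SE 0.19, adjusted p = 2.3e-04), TFAP2A was lower, at -2.53 (SE 0.33, adjusted p = 0.0015), and the median was 0.11. In the same order of pools, TFAP2A was at 1.23, 0.856, 0.943 and 0.707 CPM in CER1-high cells. POU5F1-high cells held 1.68, 3.03, 0.513 and 1.39 CPM of it, and POU5F1-low cells 32.9, 23.4, 18.2 and 12.8. The other cells hold both of these classes, and their part in the TFAP2A difference was not tested. The E proteins TCF3 (log2 -0.31, adjusted p = 0.067), TCF4 (log2 -0.46, adjusted p = 0.04) and TCF12 (log2 0.19, adjusted p = 0.319) were not called. BMP7 stood at 0.07 (SE 0.20).

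The last comparison asks which late cells hold the genes. Cells of D11, D13 and D15 with POU5F1 below 50 CPM were compared with those at 200 CPM or more, without the CER1-high cells. The shares of POU5F1-low cells given above differ widely between pools, and the cuts do not separate the same cells everywhere. COL1A1, a fibroblast collagen, was at 66.0 to 216 CPM in POU5F1-high cells of pool B of D11, pool A of D13 and both pools of D15, but at 809 CPM in pool A of D11 and 487 CPM in pool B of D13. Free RNA and doublets as a part of these levels were not tested. The fit used pool B of D11 (840 POU5F1-low cells), pools A (314) and B (29) of D13 and pool B of D15 (21). In the POU5F1-low cells all 11 fibroblast markers were at 5 CPM or more in each of the 6 pools, summing to 4490 to 11649 CPM, against 481 to 2706 in POU5F1-high cells, and the 11 pluripotency markers other than POU5F1 summed to 147 to 753 CPM in POU5F1-low cells, against 1555 to 3423. All 11 of these were at 5 CPM or more in POU5F1-high cells and 7 to 11 of them in POU5F1-low cells. On D15 other markers moved with the class too, as 9 of 11 mesendoderm markers were at 5 CPM or more in POU5F1-low cells, summing to 286 CPM against 22.3 in pool A and 154 against 32.8 in pool B. In the 4 pools of D11 and D13 that sum was 21.9 to 63.2 CPM against 22 to 85.7. The trophoblast or amnion markers summed to 28.2 to 168 CPM in POU5F1-low cells, against 9 to 50.2, and were higher in each of the 6 pools. Both pools of D0 fibroblasts had sums within the range of POU5F1-low cells. TFAP2A, which is in this list, had a mean of 63.6 CPM on D0. Of the 10 markers, 5 or 6 were at 0 in the few POU5F1-low cells of pool A of D11, pool B of D13 and both pools of D15. In pool B of D11 and pool A of D13, 1 and 3 were at 0. The part of these marker levels in the differences below was not tested.

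**Figure D4:**
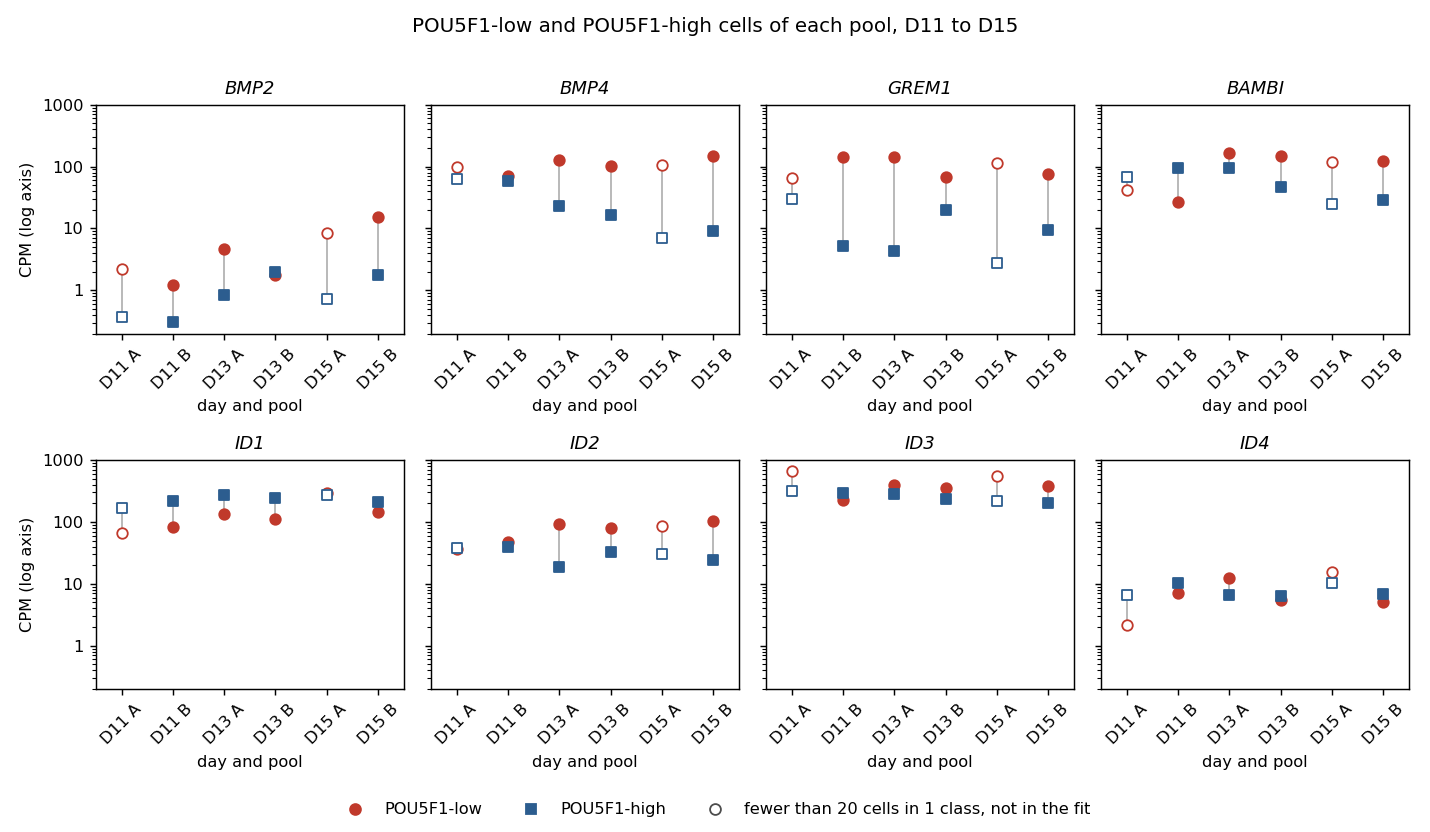
Level in CPM (log axis, the same in each panel) in POU5F1-low cells (circles) and POU5F1-high cells (squares) of each pool of D11 to D15, with open symbols for the 2 pools with fewer than 20 POU5F1-low cells. BMP4 falls with day in the POU5F1-high cells and not in the POU5F1-low cells, and BAMBI changes order between D11 and the later days.

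In POU5F1-low cells 3 of the 7 genes were called higher and 1 lower, where 39.0% of all genes were called, 19.5% in each direction. GREM1 was at 143 CPM against 5.26 in pool B of D11, at 141 against 4.38 in pool A of D13, at 66.7 against 19.9 in pool B of D13 and at 76.8 against 9.53 in pool B of D15. It was higher by 3.68 on the log2 scale (SE 0.58, adjusted p = 0.0013), and higher in the 2 pools outside the fit as well. The smallest ratio, 2.22, was that of pool A of D11, where collagen was highest in the POU5F1-high cells.

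BMP4 was at 69.1 CPM against 58.3 in pool B of D11, at 130 against 22.9 in pool A of D13, at 101 against 16.2 in pool B of D13 and at 146 against 9.22 in pool B of D15. It was higher by 2.19 (SE 0.51, adjusted p = 0.0071). The ratio was 1.57 and 1.19 in pools A and B of D11 and 5.65 to 15.8 in the 4 pools of D13 and D15, highest on D15, where the mesendoderm markers were also higher. In POU5F1-high cells BMP4 stood at 62.5 and 58.3 CPM in the 2 pools of D11, at 22.9 and 16.2 in those of D13 and at 7.08 and 9.22 in those of D15, with no overlap between days. Fitted in POU5F1-high cells only, an analysis added after the values were seen, these steps were -1.61 (SE 0.26, adjusted p = 0.367) and -1.23 (SE 0.26, adjusted p = 0.507), in a fit that called none of the 12794 genes.

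The 2 pools of D13, which differed in BMP4 as a whole (58.1 and 25.1 CPM), held 22.9 and 16.2 CPM in POU5F1-high cells and 130 and 101 CPM in POU5F1-low cells, which were 22.8% of cells in pool A and 0.713% in pool B. For BAMBI the same pools, at 118 and 52.0 CPM as a whole, held 95 and 46 CPM in POU5F1-high cells. The part of cell makeup in either difference was not tested.

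ID2 was at 47.2 CPM against 38.8 in pool B of D11, at 93.1 against 18.7 in pool A of D13, at 81.1 against 32.2 in pool B of D13 and at 105 against 24.5 in pool B of D15. It was higher in the POU5F1-low cells of these 4 pools, by 1.39 (SE 0.32, adjusted p = 0.0068). Of the pools outside the fit, pool A of D11 was at 37.0 CPM against 37.6 and pool A of D15 at 85.2 against 30.3. The calls of BMP4 and ID2 were lost when pool A of D13, pool B of D13 or pool B of D15 was left out, with BMP4 then at 1.70 to 2.11 (adjusted p of 0.022 to 0.031) and ID2 at 1.07 to 1.44 (adjusted p of 0.02 to 0.042). They were also lost with cells below 20 CPM set against those at 400 CPM or more, and with the pools of D9 added. Those of GREM1 and ID1 were kept in each. By the paper, POU5F1 was among the factors transfected as mRNA, up to day 8. Transfected POU5F1 RNA cannot be told from that of the gene, so the classes of D9 may be cut on it.

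ID1 went the opposite way, at 83.4 CPM against 216, 136 against 277, 112 against 240 and 146 against 213 in the same pools. It was lower, at -1.13 (SE 0.14, adjusted p = 4.6e-04). Pool A of D15, outside the fit with 19 POU5F1-low cells, was the exception, at 293 CPM against 268. ID3 stood at 0.29 (SE 0.18, adjusted p = 0.189) and ID4 at 0.02 (SE 0.33, adjusted p = 0.975).

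BAMBI was not called (log2 0.59, SE 0.57, adjusted p = 0.405) unless pool B of D11 was left out (log2 1.37, adjusted p = 0.0039), and its order turned with the day. In POU5F1-low cells it was at 41.4 CPM against 66.7 and 26.6 against 94.7 in the pools of D11, lower in both. It was at 166 CPM against 95 and 150 against 46 in those of D13, and at 119 against 25.2 and 125 against 29.1 in those of D15, higher in all 4. A class by day term, added after this was seen, gave 3.21 on the log2 scale (SE 0.48, unadjusted p = 1.3e-04), but its adjusted p was 0.617 and no gene was called. By edgeR, 349 genes and 4 of the 7 had an unadjusted p below 0.05 there, and D11 entered with 1 pool.

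BMP2 was higher in POU5F1-low cells in the fit of all genes, by 2.01 (SE 0.43), where 22.7% of genes were called. Its levels rest on few UMIs, 110 in all in the POU5F1-low cells of the fit, and 1 of 6 pools (pool B of D13, at 1.80 CPM against 1.95) did not show the difference. These levels of 1.22 to 15.4 CPM lie below the 55.1 to 123 CPM of CER1-high cells.

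Around them, 7 of 8 antagonists were higher in POU5F1-low cells, with a median of 2.14 beside -0.02 over all genes. BMPER, a BMP-binding antagonist of endothelium and stroma, was higher by 4.07 (SE 0.48, adjusted p = 4.1e-04), and FSTL3 by 2.54 (SE 0.39, adjusted p = 0.0011). Higher BMPER was not particular to POU5F1-low cells, as it was also called in CER1-high cells (log2 2.53, SE 0.21, adjusted p = 2.5e-04). In pools A and B of D13 and of D15, CER1-high cells held 25.3, 14.6, 18.9 and 8.83 CPM of BMPER. POU5F1-low cells of those pools held 10.9, 12.6, 8.38 and 10.2 CPM. Of 10 receptors and co-receptors, 5 were higher and 3 lower, with a median of 1.04. ACVRL1 (ALK1), a type I receptor, was higher by 4.35 (SE 0.54, adjusted p = 4.9e-04) and ENG by 3.12 (SE 0.35, adjusted p = 3.6e-04). All 5 tested genes of the other targets were called higher, with a median of 3.11, among them MSX1 by 3.89 (SE 0.53, adjusted p = 6.6e-04) and RUNX2, a regulator of bone formation, by 3.26 (SE 0.43, adjusted p = 5.8e-04). ATOH8, of this list, went the other way in pool B of D13, at 0 CPM against 0.310. Of the 8 SMADs and inhibitors, SMAD9 (log2 2.39, SE 0.43) and SMURF2 (log2 1.58, SE 0.24) were higher, with a median of 0.50. In the POU5F1-low cells of pool B of D13 and pool B of D15, RUNX2 was at 3.60 and 5.12 CPM and SMAD9 at 1.80 and 5.12. There 1 UMI is 1.80 CPM in pool B of D13 and 2 UMIs are 5.12 CPM in pool B of D15, so these levels rest on very few UMIs. Of the E proteins TCF4 was higher by 1.31 (SE 0.14) and TCF3 lower, at -1.02 (SE 0.15). BMP7 stood at -0.64 (SE 0.36).

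Across the 16 pools the profiles of the 8 genes were alike in part. As a description over pools that share days and cell makeup, Pearson's r of log2(CPM + 1) was 0.949 for ID1 with ID4, 0.944 for BAMBI with ID3, 0.865 for ID1 with ID3 and 0.792 for GREM1 with ID2, but 0.200 for ID2 with ID3 and -0.378 for BMP2 with BMP4. Among 7052 tested genes (less the gene itself) with a mean of 10 CPM or more, the most alike were CALB1 and N4BP3 for BAMBI (both 0.991), MDFI (0.973) and PPP1R14A (0.972) for ID3, and RBPMS (0.961) and SLC2A3 (0.953) for ID1. They were LSR (0.960) and EPCAM (0.958) for ID4 and CXCL12 (0.944) and ADD3 (0.919) for ID2. For the ligands they were ACTN1 (0.912) and CRIP2 (0.907) for BMP4 and MIB2 (0.941) and TMSB15A (0.932) for BMP2, and for GREM1 they were LTBP2 (0.923) and PAPPA (0.893).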

How the data were processed

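BJ fibroblasts and their reprogramming progeny from 8 days were measured by droplet single-cell RNA-seq. The deposited values are raw counts: the authors counted UMIs per gene and barcode with Cell Ranger 2.2, named in the submitters' processing notes, on hg38 with the GRCh38 annotation. They hold no normalization, and aliquots of a pool are separate.

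Aliquots were added, which gave 16 pools with 33181614 to 180056814 UMIs. A cell needed 1000 or more genes and no more than 10% of UMIs from mitochondria, as in the study, and genes with a UMI in at least 5% of cells (12794 of 33694) were tested. The main test was edgeR 4.0.16 (quasi-likelihood, TMM, Benjamini-Hochberg) in R 4.3.3, with all 16 pools in 1 fit for days and with the pool as a block for cell classes, on sums per pool and class of at least 20 cells. DESeq2 1.42.0 was an alternative. The fits were also run on simulated counts, and the outcome is not given here. CER1-high and POU5F1 classes were cut at fixed CPM of single cells, and sums were used, so cells are not replicates. No doublet caller was run, and the deepest 5% of cells were left out as an alternative. A SE is the log2 fold change divided by the square root of its F. Other alternatives were DESeq2's size factors, no gene filter, every barcode, other cuts, thinning to 10000 UMIs, an adjusted p below 0.05, no replicate block or one by pool letter, and each pool left out in turn. Intervals of shares are exact binomial (scipy 1.17.1) at 95%. Sums used numpy 2.4.6 and pandas 2.3.3 in Python 3.11.15, and figures matplotlib 3.10.9.

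Neither the labels nor the paper say whether a pool letter is a shared source across days. Over 28 pairs of days, the differences between pools A and B correlated at -0.45 to 0.82 across genes, with a median near 0. These values cannot decide it, since some pairs of days were alike and pools differed in cell makeup. The letter was not used as a block in the main fit. Classes of 1 pool are paired by that pool.

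The 8 genes are always named. Of each role list, the 2 genes with the largest called change are named for D15 against D0, for CER1-high and for POU5F1-low cells, and for each gene the 2 most alike over pools. SMAD1, SMAD5, TCF12, HAND1, GATA3, MSX2, DLX3 and DLX5 were named after their values were seen. The genes, lists and cuts were chosen with earlier results of these data known. The role lists hold other BMP ligands, antagonists, receptors, SMADs with inhibitors, other targets and E proteins. The marker lists (fibroblast, pluripotent, mesendoderm, trophoblast or amnion) served only to check labels and cuts. Of the 8 genes, RefSeq promoter windows were printed for 4. No protein sequence was used here.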

Additional observations from a re-analysis of the deposited data

How the results depend on the processing

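With 2 pools per day and 3 or 4 pools in the fits of cell classes, single calls often rested on 1 pool, as given beside them. Left out in turn, the pools gave 3 to 4 of the 7 genes called in D3 against D0, 2 to 2 in D5 against D3, 0 to 2 in D7 against D5, 1 to 2 in D9 against D7 and 0 to 0 in D11 against D9. They gave 0 to 1 in D13 against D11, 0 to 2 in D15 against D13, 5 to 6 in D15 against D0, 6 to 7 in D9 to D15 against D3 to D7, 1 to 4 in CER1-high cells and 2 to 5 in POU5F1-low cells. The test of any difference among days called 7 each time. The tests of the class effects between days have no such value. Of results called by the main settings, 153 stayed called and 32 did not when a pool was left out, and 247 stayed called and 12 did not under the other alternatives, with none of them reversed.

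An adjusted p below 0.05, whatever the fold, called 5 genes in D3 against D0, 5 in D9 against D7, 2 in D11 against D9 and 5 in CER1-high cells. DESeq2 called 5, 5 and 2 in those comparisons of days. Over the alternatives that kept every pool, 3101 to 5157, 861 to 1904 and 439 to 1470 of all genes were called in those comparisons of days. The range was 116 to 4432 in CER1-high cells and 2973 to 7105 in POU5F1-low cells. With no filter on genes ID1 lost its call in D5 against D3 (0.70), and 2 genes were called in D11 against D9, 1 in D13 against D11, 2 in D15 against D13 and 6 in CER1-high cells, BMP2 being tested there. In that order, 5.02%, 1.17%, 1.81% and 15.1% of all genes were called with no filter. POU5F1-low cells had 2 called with the cuts at 20 and 400 CPM and 2 with the pools of D9 added, in place of 4. ID2 in CER1-high cells turned to -0.02 with thinned cells, -0.05 with no filter and -0.03 with classes of at least 10 cells. In POU5F1-low cells BAMBI turned to -0.53 with the cuts at 20 and 400 CPM and to -0.16 with D9 added. ID4 turned there to -0.15 and -0.29 under the same settings, to -0.01 with 1 cut at 100 CPM, -0.10 thinned, -0.04 by DESeq2, -0.03 with no filter, -0.01 with classes of at least 10 cells and -0.53 without pool A of D13 (0.34 without pool B of D11). BAMBI in D13 against D11 turned to -0.22 without pool A of D13 (0.78 without pool B) and to -0.19 in POU5F1-high cells only. None of these was called, and the cause was not tested. The classes of at least 10 cells and the fits with POU5F1-high cells alone were added after seeing the data.

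The pool letter as a replicate block gave 3, 3, 3, 3, 1, 0, 0 and 6 genes called in the day comparisons in the order above, 6 in the late against the early days and 7 among all days, and it changed no call of the 7 genes. Whether a letter is a shared source across days is not known. Without the pool as a replicate block, CER1-high cells had 0 genes called and POU5F1-low cells 4.

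Counts over all genes moved more. They ran from 1444 to 5157 for D3 against D0, 229 to 910 for D5 against D3, 28 to 610 for D7 against D5, 309 to 1904 for D9 against D7, 67 to 1470 for D11 against D9, 0 to 473 for D13 against D11, 0 to 654 for D15 against D13, 116 to 4432 for CER1-high cells and 2152 to 7105 for POU5F1-low cells. With no filter, D15 against D0 had 11257, the late against the early days 10400 and any day 14459. BMP2 and ID4 rest on few UMIs per cell, which limits their precision.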
